A study of Mus musculus with 20 samples.

Results

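The effect of ischemia-reperfusion injury (IRI) on the mouse kidney was compared with the effect of cisplatin, gene by gene. An effect is the mean level in injured kidneys minus the mean level in the controls that go with them, in log2(CPM + 1), where CPM is the depth-scaled count of the table. The difference is the IRI effect minus the cisplatin effect, so a positive value says that a gene rose more, or fell less, in IRI. It used 16 of the 20 libraries of the series: 4 IRI libraries with controls 1 to 4, and 4 cisplatin libraries with controls 5 to 8. Of the 6025 genes in the table, the 5672 with a mean of at least 1 CPM over all libraries were tested. All animals were wild-type (WT) C57BL/6 mice, C57BL/6J in the protocol text, aged 8 weeks. The controls carried the treatment label mock, and the series' design text speaks of mock and vehicle animals, so the kinds of control cannot be told apart. Tissue was taken 24 h after IRI and 72 h after cisplatin, hence kind of injury and time since injury cannot be told apart in any difference given here. Controls 1 to 4 and the IRI libraries share one range of library identifiers, and controls 5 to 8 and the cisplatin libraries share another. The drug dose and the length of ischemia are not given in the sources used here. RNA came from whole renal cortex, so that fewer cells of a type and less RNA per cell cannot be told apart.

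IRI stops and then restores renal blood flow, and the tubule cells with the highest energy demand, above all those of the proximal straight tubule (segment S3), are known to suffer most. Cisplatin is taken up by proximal tubule cells, crosslinks DNA and is known to activate the transcription factor p53, whose targets halt the cell cycle or start apoptosis. Both injuries make surviving tubule cells lose transporters and express injury genes such as Havcr1, which encodes kidney injury molecule KIM-1.

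The libraries held 3.48 to 5.40 M reads in the table, out of effective library sizes of 6.07 to 10.6 M. Every gene in the table lay at least 1.53-fold from the mean of the 8 controls in at least 1 injury of the series, so the shares of called genes describe a set selected for change. Libraries of one group differed by more than counting noise, with a chi-square per gene of at least 6.57, and none looked like a copy of another. The labels do not say which litter, cage or day an animal came from. Between the 2 sets of controls, limma called 0 of 5672 genes (0%), with 454 genes at an unadjusted p under 0.05, and DESeq2 called 2. The proximal tubule phosphate transporter Slc34a1 and the loop of Henle cotransporter Slc12a1 were present in all 16 libraries, and muscle and adrenal marker genes were absent from the table. As the table holds a set selected for change, their absence does not show that such tissue was missing.

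The effects of both injuries mostly pointed the same way, and where they differed, the cisplatin effect was the larger one in 82% of cases. Against their own controls, 4578 genes (80.7%) passed a limma adjusted p of 0.05 in IRI and 5208 (91.8%) in cisplatin. In IRI 40.6% were called higher and 40.1% lower, and in cisplatin 47.8% and 44%. The difference itself passed for 1716 genes (30.3%), 763 with the IRI effect higher (13.5%) and 953 with it lower (16.8%). The 4 IRI libraries lay wholly above the 4 cisplatin libraries, each against its own controls, for 1165 genes (20.5%) and wholly below them for 1429 (25.2%). Of these 1716 genes, 779 rose more in cisplatin and 628 fell more in cisplatin. A further 130 rose more and 166 fell more in IRI, which together is 17.2%, and 13 (0.758%) were called in opposite directions. The share with the larger effect in cisplatin was 80.9% to 82% under other scalings and tools. Quantile normalization raised the opposed genes to 48 (2.44%). Among genes larger in cisplatin the order of rises and falls turned with quantile normalization (713 and 888), 75th percentile scaling (709 and 728) and edgeR (619 and 644). The balance between higher and lower differences was less firm: 44.5% were higher with the deposited scaling, 50.6% after 75th percentile scaling and 55.7% after quantile normalization. Quantile normalization moved the median cisplatin effect of all genes from 0.30 to 0.03, and 75th percentile scaling moved the median IRI effect from 0.08 to 0.18. The median difference over all genes tested was −0.05. The plot of one effect against the other shows this layout.

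**Figure D1:**
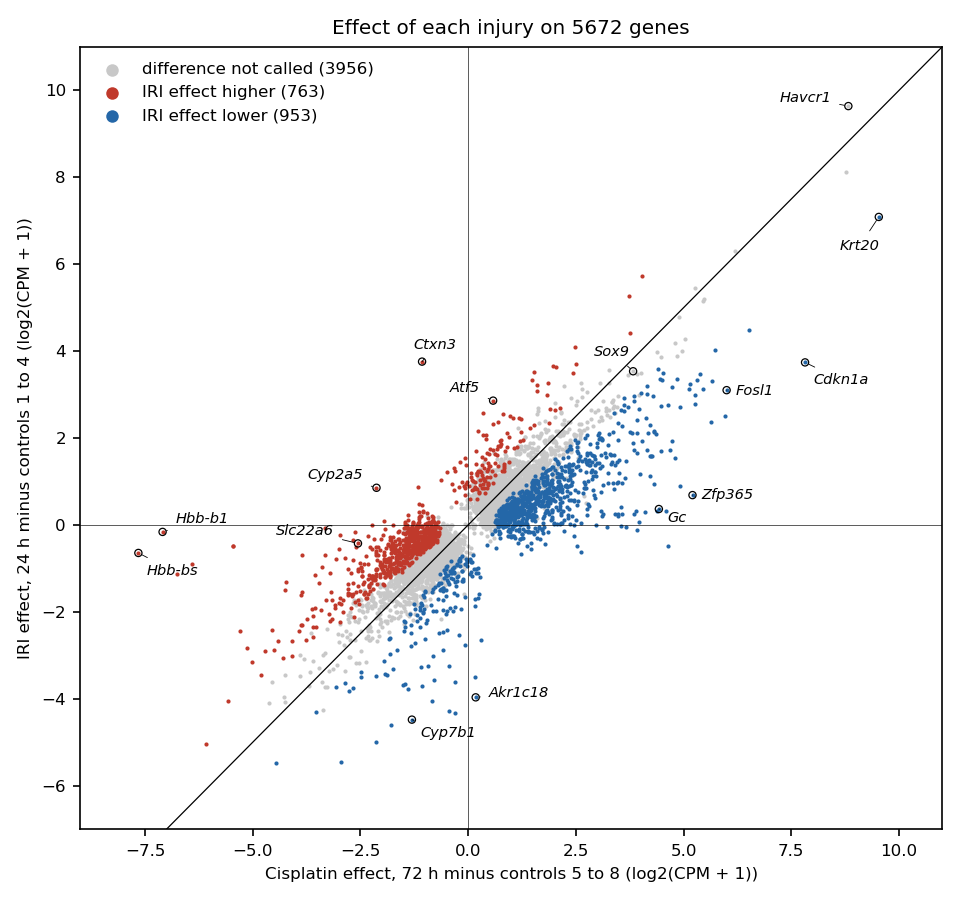
Effect of IRI (vertical axis) against effect of cisplatin (horizontal axis) for 5672 genes, both in log2(CPM + 1) against the 4 controls of the same identifier range; each point is a gene and the diagonal marks equal effects. Most points lie in the lower left and upper right of the plot, the 763 genes with a higher IRI effect (red) lie above the diagonal and the 953 with a lower one (blue) below it.

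Genes called in the same direction in both injuries numbered 4237, and for 3114 of these the difference was not called. In 2563 of the 3114 the 95% interval of the difference lay within 1 log2 unit either way, so larger differences lie outside the interval for those genes. The transcription factor Sox9 and the neuropeptide precursor Vgf, both in the series title, were among the genes with no called difference. For Sox9 the difference was −0.29, with a 95% interval from −0.90 to 0.31, and it ranged from −0.47 without IRI 2 to −0.12 without IRI 1. For Vgf it was near 0, with an interval from −1.03 to 1.02, and its sign turned with the scaling. The interval of Lcn2, which encodes the injury marker NGAL, ran from −1.5 to 0.21. Havcr1 stood at 4062, 3094, 3862 and 2851 CPM in IRI and at 1724, 1659, 1546 and 1512 CPM in cisplatin, from control levels of 1.66 to 4.89 CPM. All IRI values exceeded all cisplatin values, yet on the log scale the difference of 0.81 (95% interval 0.13 to 1.5) did not pass (limma adjusted p = 0.0648). It passed with the 16 libraries alone, with a pseudocount of 5 (0.95), and when control 2, 4 or 8 was left out (0.92 to 0.96).

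A set of 22 pathway lists was described by the count of members called and the median difference, to be read against the background of 13.5% higher and 16.8% lower and the median of −0.05. The lists at one end were p53 targets, interferon genes, cytokines and immediate early genes, with 25 of 29, 15 of 18, 15 of 24 and 20 of 25 members called with the IRI effect lower. At the other end stood DNA replication, cholesterol synthesis and proximal tubule genes, with 5 of 18, 5 of 12 and 16 of 36 called with the IRI effect higher. Members of a list that passed the minimum level are the only ones counted, and many list genes were absent from the table.

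**Figure D2:**
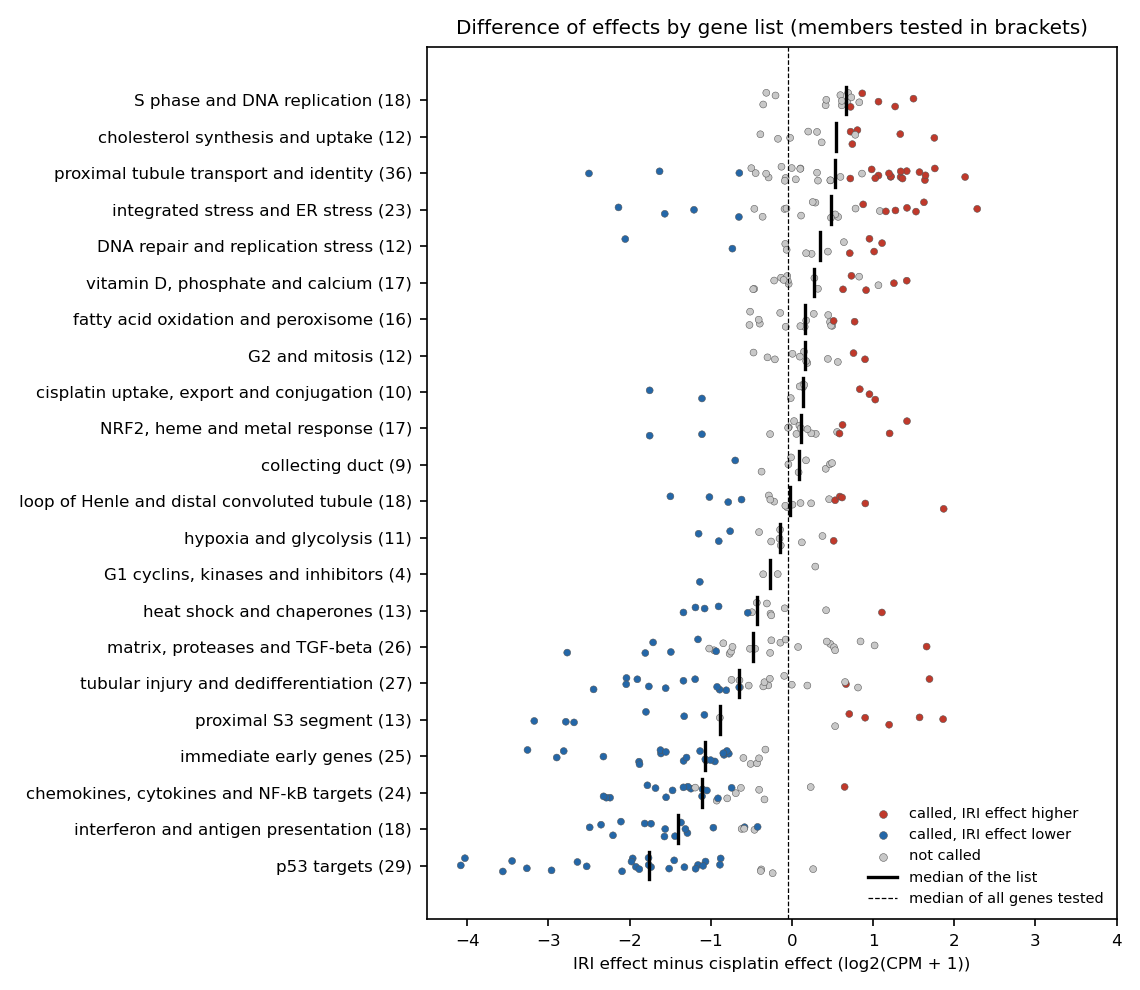
Difference of effects (IRI minus cisplatin, log2(CPM + 1)) of every tested member of 22 gene lists, 1 point a gene, with the median of each list (bar) and the median of all genes tested (dashed line). The p53 targets lie farthest to the left with a median of −1.76, and the S phase genes farthest to the right with a median of 0.66.

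**Figure D3:**
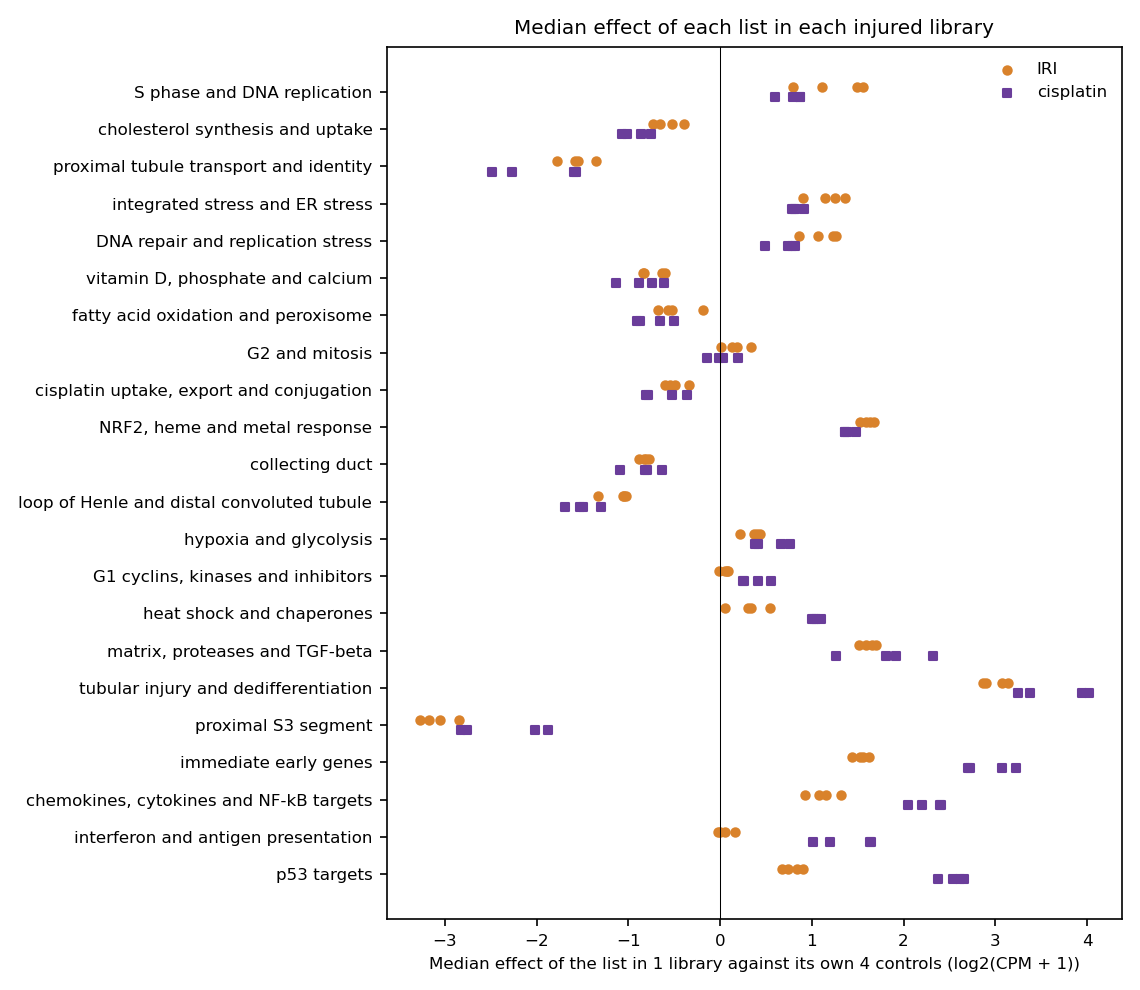
Median effect of each list in each of the 4 IRI (circles) and 4 cisplatin libraries (squares), against the mean of the matched controls, in log2(CPM + 1). For p53 targets the IRI libraries lie between 0.67 and 0.90 and the cisplatin libraries between 2.37 and 2.66, while for proximal tubule genes the ranges overlap.

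Among the 22 pathway lists, the p53 targets had the median difference farthest from 0. Cdkn1a encodes p21, the inhibitor of cyclin-dependent kinases through which p53 arrests the cell cycle, and lies at chr17:29090979-29100722 (GRCm38.p6). It stood at 4.44, 3.52, 5.55 and 5.75 CPM in controls 1 to 4 and at 80.4, 64.9, 63.8 and 99.0 CPM in IRI. In controls 5 to 8 it stood at 2.96, 3.85, 5.88 and 3.31 CPM, and in cisplatin at 928, 1171, 1206 and 1135 CPM. Both injuries lay wholly above their controls, and every cisplatin library lay above the highest IRI library. The mean rose 16-fold in IRI and 277-fold in cisplatin, and the difference was −4.08 (SE 0.26, limma adjusted p = 1.10e-10). Eda2r, a member of the TNF receptor family, rose in both injuries too, to 6.53 to 9.31 CPM in IRI and 94.7 to 106 CPM in cisplatin, with a difference of −3.45.

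Plk2, a polo-like kinase induced by DNA damage, stood at 9.05, 11.7, 13.2 and 10.5 CPM in IRI, within the range of controls 1 to 4 (8.16 to 16.1 CPM). In cisplatin it stood at 124, 138, 142 and 129 CPM against 9.81 to 11.4 CPM in controls 5 to 8. The cisplatin libraries thus lay far above every other group, and the difference was −3.56 (SE 0.22, limma adjusted p = 8.83e-11). Psrc1, a microtubule-associated p53 target, rose in both, to 0.92 to 1.84 CPM in IRI and 34.4 to 45.8 CPM in cisplatin, with a difference of −4.03. Mdm2 (−1.96), the ubiquitin ligase that degrades p53, Phlda3 (−3.27) and Bax (−0.88), which promotes apoptosis, also rose in both and more in cisplatin, and Ccng1 (−2.09) did not pass in IRI. Trp53 itself (−0.38) was not called. Over the list, 20 of 29 members were called higher in IRI (background 40.6%) and 26 in cisplatin (47.8%), and no member had a called difference with the IRI effect higher. The count of 25 stayed at 25 or 26 when any library was left out.

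Genes of DNA replication mostly rose in both injuries, and the few called differences had the IRI effect higher. Uhrf1, which carries DNA methylation through replication, stood at 1.34, 0.845, 1.29 and 2.16 CPM in controls 1 to 4 and at 17.4, 22.5, 29.7 and 11.4 CPM in IRI. Controls 5 to 8 were at 2.47, 3.05, 1.6 and 1.66 CPM and cisplatin libraries at 8.64, 7.67, 11.2 and 6.97 CPM. It rose in both injuries, with the lowest IRI library just above the highest cisplatin library, and the difference was 1.5 (SE 0.38, limma adjusted p = 0.00449). Mcm10, a replication initiation factor, was at 6.25 CPM ± 2.25 in IRI against 5.45 ± 1.19 and did not pass there. It fell in cisplatin to 1.86 CPM ± 0.65 from 5.33 ± 1.90 (SD, n = 4 each), and its difference was 1.27.

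Of 18 tested S phase genes, 16 were called higher in IRI (background 40.6%) and 14 in cisplatin (47.8%). A difference was called for 5, a share near the background of 30.3%, and all 5 had the IRI effect higher (background 13.5%). The median effect of the list overlapped between the IRI (0.79 to 1.56) and cisplatin libraries (0.60 to 0.87). The count of 5 is sensitive to single libraries: it was 3 without IRI 2, IRI 3 or control 6 and 9 without IRI 4, and 10 after quantile normalization. Mcm5, a subunit of the replicative helicase, had a difference of 1.07 and lost its call without IRI 2, IRI 3 or control 6 (0.91 to 0.98). Gins2 (0.87) lost it without those libraries or cisplatin 2 (0.70 to 0.82). Of 12 DNA repair genes, 4 had a higher (background 13.5%) and 2 a lower difference (16.8%), and the total of 6 fell to 2 without IRI 2 and 3 without IRI 3. With edgeR 3 and with DESeq2 2 had a higher one. Chek1 (0.95) was called with neither tool, nor without IRI 2 or 3, cisplatin 4, or control 1 or 6 (0.80 to 0.91). Clspn (1.01) lost its call without IRI 1, 2 or 3 or cisplatin 3 (0.89 to 0.93). The repair gene Brca1 reached 4.23 to 7.81 CPM in IRI and 1.45 to 2.62 CPM in cisplatin (difference 1.11). Ercc1, a subunit of the endonuclease that cuts crosslinked and bulky lesions, went the opposite way, at 19.4 to 23.2 CPM in IRI and 60.0 to 99.4 CPM in cisplatin (difference −2.05). Of 12 genes of G2 and mitosis, Cdk1 (0.90) and Cenpe (0.76) were called, and neither was with edgeR or DESeq2. Cdk1 lost its call without control 1 (0.77). Cenpe lost it without IRI 1, 2 or 4, cisplatin 1 or 2, or control 2, 4, 5 or 6 (0.59 to 0.78). Of 4 G1 genes, Cdkn2b, an inhibitor of the kinases that start the cycle, was called (−1.14), and it was not with DESeq2.

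The integrated stress response, in which the factor ATF4 switches on genes of amino acid supply, had 7 of 23 members with a higher difference (background 13.5%) and 4 with a lower one, a share near the background of 16.8%. Atf5, a transcription factor of this response, stood at 13.4, 12, 15.8 and 18.1 CPM in controls 1 to 4 and at 199, 98.6, 103 and 79.5 CPM in IRI. In controls 5 to 8 it stood at 19.1, 18.4, 15.4 and 15.1 CPM and in cisplatin at 23.0, 26.3, 29.7 and 24.4 CPM. It rose in both, 8.11-fold and 1.52-fold, and the difference was 2.28 (SE 0.29, limma adjusted p = 4.36e-06). Asns, asparagine synthetase, reached 69.6, 35.6, 40.1 and 39.8 CPM in IRI and 11.7, 13.5, 15.9 and 15.8 CPM in cisplatin, from 3.16 to 4.94 CPM in all controls. The lowest IRI library exceeded the highest cisplatin library, and the difference was 1.63 (SE 0.26, limma adjusted p = 7.23e-05). Library IRI 1 was the highest for both genes, and without it the differences were 2.01 and 1.42, still called. Mthfd2 (1.53), an enzyme of mitochondrial folate metabolism, and the serine synthesis enzyme Psat1 (1.27) had the same sign.

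Ppp1r15a, which encodes GADD34, the phosphatase subunit that ends the response, stood at 22.8, 19.7, 16.6 and 23.1 CPM in IRI and 79.7, 99.2, 99.9 and 88.4 CPM in cisplatin, against 14.9 to 19.5 CPM in the controls. It did not pass in IRI and rose 5.17-fold in cisplatin, with a difference of −2.14 (SE 0.20, limma adjusted p = 5.86e-08). Ddit4, an inhibitor of mTOR signaling, rose in both, with a difference of −1.57, and Ddit3, which encodes the pro-apoptotic factor CHOP, had one of −1.21. Atf4 itself (−0.09) was not called.

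Promoters of 2 members with a higher IRI effect hold the letters TGATGNAA, a form of the site that ATF4 dimers are known to bind. They are shown as the 2 genes with the motif and a called difference. The stretches are RefSeq promoter sequence (GRCm38.p6), printed 5′ to 3′ on the strand of the gene, with the match on either strand in capitals. The Asns stretch is chr6:7693210-7693257 (minus strand), bases 48 to 1 before the start of transcription. The Slc7a11 stretch is chr3:50443628-50443704 (minus strand), bases 91 to 15 before the start in the promoter table. That start lies inside the whole span of the gene in RefSeq (chr3:50364936-50499087), so it is not the most upstream one.
Asns: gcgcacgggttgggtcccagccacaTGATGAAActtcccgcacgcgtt
Slc7a11: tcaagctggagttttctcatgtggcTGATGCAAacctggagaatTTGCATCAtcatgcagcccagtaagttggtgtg
The motif was found on either strand in the 250 bases before the start of 5 of 20 list members with a promoter entry (25%), among them Chac1, Nupr1 and Herpud1. It was found in 3.91% of 27025 promoters and in 2.58% of the 4233 tested genes with an entry. Of these 5, the difference was called for Asns and Slc7a11 and not for the other 3, and that of Chac1 (0.78) ranged from 0.33 without IRI 1 to 1.07 without IRI 3, where it was called. Herpud1 fell in both injuries.

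Antioxidant and metal response genes rose in both injuries, 16 of 17 members in each (background 40.6% in IRI and 47.8% in cisplatin). A difference was called for 6 of 17, a share near the background of 30.3%. Hmox1, heme oxygenase, stood at 783, 464, 490 and 528 CPM in IRI and 183, 215, 186 and 184 CPM in cisplatin, from 27.6 to 54.9 CPM in the controls. All IRI libraries exceeded all cisplatin libraries, and the difference was 1.2 (SE 0.27, limma adjusted p = 0.00187; 1.04 without IRI 1). Slc7a11, the cystine importer, reached 8.12 to 24.0 CPM in IRI and 1.79 to 3.97 CPM in cisplatin. Controls 1 to 4 had at most 3 reads of it, so it was at least 31.2-fold higher in IRI and at least 6.79-fold higher in cisplatin. Its difference of 1.42 shrank to 0.74 with edgeR, 0.62 with DESeq2 and 0.57 with a pseudocount of 0.1, and was not called in any of them. The metal-binding metallothioneins went the other way: Mt2 reached 209 to 344 CPM in IRI and 466 to 856 CPM in cisplatin (difference −1.75), and Mt1 had a difference of −1.11.

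Among 13 chaperone genes, 5 had a lower difference (background 16.8%) and 1 a higher one (13.5%). The small heat shock protein Cryab reached 149 to 259 CPM in IRI and 354 to 467 CPM in cisplatin (−1.34). Hspa1b (−1.19) and Hspa1a (−1.08) encode nearly identical proteins, so their reads may have been exchanged. Fkbp4, a cochaperone of steroid receptors, did not pass in IRI and fell in cisplatin to 120 CPM ± 3.18 from 297 ± 51.8 (SD, n = 4 each), a difference of 1.11. Of 11 genes of hypoxia and glycolysis, the glucose transporter Slc2a1 (−0.90), Pkm (−0.76) and Hk2 (−1.15) had a lower difference (background 16.8%). Hk2 was not called with edgeR, DESeq2 or a pseudocount of 0.1. Egln1, an oxygen sensor that marks the hypoxia-inducible factor for destruction, fell in both injuries and less in IRI (0.51).

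Immediate early genes, which cells transcribe within minutes of a stimulus, had a lower difference in 20 of 25 members (background 16.8%). All 25 were called higher in cisplatin (background 47.8%) and 22 in IRI (40.6%). Egr1, a zinc finger factor of this class, stood at 4.04, 4.50, 2.97 and 8.92 CPM in controls 1 to 4 and at 15.9, 32.4, 20.0 and 18.5 CPM in IRI. In controls 5 to 8 it stood at 3.46, 6.09, 5.74 and 5.53 CPM and in cisplatin at 134, 209, 197 and 126 CPM. Each injured group lay above its controls, and the cisplatin libraries lay above all IRI libraries (difference −2.81, SE 0.34, limma adjusted p = 1.97e-06). Fosb, an AP-1 subunit, did not pass in IRI, at 0.34 to 0.80 CPM. In cisplatin it was at 8.76 to 12.1 CPM with no read in controls 5 to 8, at least 22.8-fold higher, and its difference was −3.26. Fosl1, another AP-1 subunit, was near 0 in all controls, at 5.06 to 11.9 CPM in IRI and at 54.4 to 78.4 CPM in cisplatin. Its difference of −2.90 was not called with edgeR or DESeq2 on the recovered reads. Jund (−0.33) and Klf4 (−0.43), of the same list, were not called.

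Interferon response genes were called far more often in cisplatin. Of 18 tested members, 16 were called higher in cisplatin (background 47.8%) and 4 in IRI (background 40.6%), and 15 had a lower difference, 12 without cisplatin 3. Isg15, a ubiquitin-like protein that interferon induces, stood at 3.63, 3.66, 3.61 and 3.02 CPM in controls 1 to 4 and at 4.72, 3.33, 4.82 and 3.77 CPM in IRI. Controls 5 to 8 were at 2.80, 3.21, 3.34 and 2.35 CPM and cisplatin libraries at 14.7, 23.7, 27.7 and 15.2 CPM. The IRI values overlapped those of their controls, and the cisplatin values lay above all others (difference −2.21, SE 0.35, limma adjusted p = 6.32e-05). Irf7, the factor that amplifies interferon production, reached 59.0 to 84.8 CPM in cisplatin against 9.41 to 13.1 CPM in IRI (−2.35). Oasl1 (−2.49), Ifit1 (−2.11) and Tap1 (−1.81), a transporter of peptides for antigen presentation, had the same sign. Cxcl10, a chemokine that interferon induces, stood at 8.26, 9.46, 6.20 and 7.66 CPM in IRI and 44.2, 53.8, 63.2 and 38 CPM in cisplatin. It did not pass in IRI and rose 7.85-fold in cisplatin, a difference of −2.29 (SE 0.35, limma adjusted p = 3.60e-05).

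The promoters of 4 genes named here, which rose in cisplatin and did not pass in IRI, are shown for GAAA followed by any 2 bases and GAAA again, a form of the interferon-stimulated response element. They are RefSeq sequence (GRCm38.p6), 5′ to 3′ on the strand of the gene, with matches on either strand in capitals. Isg15 is shown from base 103 to base 32 before its start (chr4:156200850-156200921, minus strand) and Ifit1 from base 129 to base 51 (chr19:34640760-34640838, plus strand). Bst2, which encodes the virus-tethering protein tetherin, is shown from base 155 to base 90 (chr8:71537562-71537627, minus strand), and Cxcl10 from base 238 to base 179 (chr5:92349068-92349127, minus strand).
Isg15: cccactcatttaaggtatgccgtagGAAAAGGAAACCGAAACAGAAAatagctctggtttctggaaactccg
Ifit1: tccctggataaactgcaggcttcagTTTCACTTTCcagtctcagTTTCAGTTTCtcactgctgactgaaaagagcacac
Bst2: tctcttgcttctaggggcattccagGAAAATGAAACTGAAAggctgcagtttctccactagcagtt
Cxcl10: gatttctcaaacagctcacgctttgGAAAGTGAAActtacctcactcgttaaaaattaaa
Isg15 holds 3 overlapping matches, Ifit1 holds 2 on the opposite strand, Bst2 holds 2 that overlap and Cxcl10 holds 1. Cxcl10 belongs to the cytokine list. Of the 13 interferon list members with a promoter entry, 4 (30.8%) hold the motif in the 250 bases before the start, namely Isg15, Ifit1, Bst2 and Igtp. The share was 3.46% over all 27025 promoters and 3.59% over the tested genes with an entry. Bst2 had a difference of −1.29, and Igtp (−0.46) was not called.

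Cytokine and NF-kB genes had a lower difference in 15 of 24 members (background 16.8%) and a higher one in 1 (13.5%), and edgeR called 9 and 1. Tnfaip3, which encodes the NF-kB inhibitor A20, reached 6.42 to 10.3 CPM in IRI and 28.8 to 34.5 CPM in cisplatin, and rose in both (difference −1.78). Lif, a cytokine of the interleukin-6 family, rose to 5.83 to 18.2 CPM in IRI and 38.3 to 62.8 CPM in cisplatin (−2.32), and edgeR did not call its difference. Cxcl2, a neutrophil chemokine, was at 0.57 to 0.80 CPM in IRI and 4.55 to 9.99 CPM in cisplatin (−2.24), and was not called by edgeR either. Il34, a ligand of the macrophage receptor encoded by Csf1r, was the 1 member with a higher difference (0.65). It lost the call without IRI 1, cisplatin 1, control 4 or control 7 (0.49 to 0.61).

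Markers of immune cells were read beside these genes. The summed level of 9 resident macrophage markers was 291 to 399 CPM in controls 1 to 4 and 153 to 208 CPM in IRI. In cisplatin it was 312 to 394 CPM against 304 to 443 CPM in controls 5 to 8. A difference was called for 3 of the 9, near the background of 30.3%, and all 3 had the IRI effect lower (background 16.8%). The members were split: 2 were called higher and 4 lower in IRI, and 5 higher and 4 lower in cisplatin. Cd68, a lysosomal protein abundant in macrophages, stood at 17.2, 14, 17.3 and 15.6 CPM in IRI and at 92.8, 102, 77.9 and 90.2 CPM in cisplatin, from 2.35 to 5.07 CPM in the controls. It rose in both injuries, with no overlap between them (difference −2.77, SE 0.21, limma adjusted p = 2.82e-09). The antigen-presenting molecule H2-Aa fell in both and further in IRI (−0.77). Csf1r (−0.69) was the remaining gene called, and it lost the call without IRI 2 or 4, cisplatin 1, 2 or 3, or control 1, 2, 6 or 8 (−0.72 to −0.62). With all libraries it lost the call under 75th percentile scaling (−0.66) and a pseudocount of 5 (−0.58). None of 6 monocyte markers had a called difference, with summed levels of 96.3 to 126 CPM in IRI and 106 to 204 CPM in cisplatin, against 37.4 to 60.8 and 41.2 to 53.3 CPM in their controls. All 9 neutrophil markers rose in both injuries (background 40.6% in IRI and 47.8% in cisplatin). Their sums were 24.8 to 40.9 CPM in IRI and 30.6 to 65.1 CPM in cisplatin, against 6.33 to 10.9 and 8.66 to 9.62 CPM. Of these 9 only Retnlg had a called difference (−1.18, background 16.8% lower), and it was not with edgeR, DESeq2 or quantile normalization, or without IRI 3, cisplatin 2 or 3, or control 2 or 8 (−1.09 to −1.05). Without IRI 1 the neutrophil list had 2 called members. The part of these cells in the interferon and cytokine values was not tested.

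Injury genes rose in both injuries, 26 of 27 in IRI (background 40.6%) and 27 of 27 in cisplatin (47.8%). A lower difference was called for 12, which rose more in cisplatin (background 16.8%). Krt20, a keratin that injured tubules express, stood at 183, 136, 152 and 292 CPM in IRI and 553, 1003, 862 and 808 CPM in cisplatin, from at most 0.77 CPM in any control. The groups do not overlap, and the difference was −2.44 (SE 0.31, limma adjusted p = 4.21e-06). The hyaluronan receptor Cd44 rose to 11.4 to 13.7 CPM in IRI and 60.4 to 73.9 CPM in cisplatin (−2.04). Complement C3 rose to 69.9 to 216 CPM in IRI and 385 to 566 CPM in cisplatin (−1.91). Sprr1a, a cornified envelope protein, had a difference of −2.04 that edgeR, DESeq2 and a pseudocount of 0.1 did not call. Spp1 (0.67), which encodes osteopontin, and the fibrinogen chain Fgb (1.69) were the 2 with a higher difference. Spp1 lost its call with quantile normalization (0.36) and without IRI 2, cisplatin 1 or 4, or control 2, 3, 5, 6 or 7 (0.54 to 0.67), and Fgb was not called with edgeR or DESeq2.

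Among 26 genes of matrix and proteases, 6 had a lower difference (background 16.8%) and 1 a higher one (13.5%). These 7 are a share near the background of 30.3%, and 12 genes were called in all without cisplatin 4. The list's median effect overlapped between the IRI (1.52 to 1.70) and cisplatin libraries (1.26 to 2.32). Inhbb, an activin subunit, rose to 7.78 to 16.1 CPM in IRI and 29.7 to 52.9 CPM in cisplatin (−1.81). Mmp10 (−2.77) had no read in any control, was at 0.11 to 0.52 CPM in IRI and at 6.03 to 9.30 CPM in cisplatin, and edgeR did not call its difference. Mmp7 (1.66), matrilysin, reached 2.36 to 6.52 CPM in IRI and at most 1.01 CPM in cisplatin, and neither edgeR nor DESeq2 called it. Of 4 fibroblast and mural cell markers, Tagln, a smooth muscle protein, rose more in IRI (1.12) and the others were not called.

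Proximal tubule genes fell in both injuries, and members of the list differed in which injury took them lower. Of 36 tested, 33 were called lower in IRI (background 40.1%) and 35 in cisplatin (44%). A difference was called with the IRI effect higher for 16 (background 13.5%), of which 13 fell in IRI and 3 did not pass there. It was called with the IRI effect lower for 3 (background 16.8%). Cisplatin 2 and 3 stood lower for this list, with median effects of −2.49 and −2.27, while cisplatin 1 (−1.58) and cisplatin 4 (−1.59) lay within the IRI range of −1.78 to −1.35. The list's median difference of 0.54 was 0.32 without cisplatin 2. The same 2 libraries were also the lowest cisplatin libraries for the S3 list and the highest for the interferon and neutrophil lists. Slc22a6, the basolateral organic anion transporter OAT1, stood at 999, 993, 1183 and 676 CPM in controls 1 to 4 and at 662, 610, 707 and 853 CPM in IRI. In controls 5 to 8 it stood at 1009, 1071, 1359 and 986 CPM and in cisplatin at 271, 138, 140 and 227 CPM. The IRI libraries overlapped their controls and did not pass, while cisplatin was 5.71-fold lower (difference 2.13, SE 0.28, limma adjusted p = 6.31e-06). The urate transporter Slc22a12 fell to 914 to 1058 CPM in IRI and 208 to 495 CPM in cisplatin (1.76). Acsm2, an acyl-CoA synthetase of proximal tubule mitochondria, fell 3.70-fold in IRI and 11.5-fold in cisplatin (1.65). The nuclear receptor Hnf4a (1.34) and the endocytic receptor Lrp2 (1.07), which encodes megalin, also had higher differences.

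Some proximal and S3 genes fell further in IRI. Mep1b, a brush border metalloprotease subunit, stood at 1.84, 2.00, 3.10 and 6.29 CPM in IRI and 57.5, 11.5, 11.6 and 50.7 CPM in cisplatin, from 120 to 250 CPM in the controls. All IRI libraries lay below all cisplatin libraries, and the difference was −2.50 (SE 0.56, limma adjusted p = 0.00175). The water channel Aqp1 fell 6.27-fold in IRI and 2.01-fold in cisplatin (−1.63). Cyp7b1, an oxysterol hydroxylase of the straight segment, stood at 159, 201, 133 and 112 CPM in controls 1 to 4 and at 4.59, 4.93, 7.23 and 6.18 CPM in IRI. In controls 5 to 8 it stood at 240, 116, 180 and 124 CPM and in cisplatin at 95.8, 57.5, 38.1 and 75.7 CPM. It fell 26.4-fold in IRI and 2.47-fold in cisplatin (difference −3.17, SE 0.36, limma adjusted p = 9.06e-07). Slc22a13, an organic anion transporter, fell 12.9-fold and 1.73-fold (−2.79). The amino acid transporter Slc7a12 fell 19.4-fold in IRI and did not pass in cisplatin (−2.69).

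The S3 list was not of one kind. Of its 13 tested members, all fell in IRI (background 40.1%) and 12 in cisplatin (44%). Of the 13, 6 fell further in IRI (background 16.8% lower) and 5 fell further in cisplatin (13.5% higher), with a list median of −0.89. In the second set were Slc22a30 (1.57), Acy3 (1.2) and Gm11128 (1.86), a gene that fell 8.93-fold in IRI and 26.8-fold in cisplatin. Gm11128 was not called with DESeq2, or without IRI 3, cisplatin 2 or 3, or control 4 or 7 (1.29 to 1.77).

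**Figure D4:**
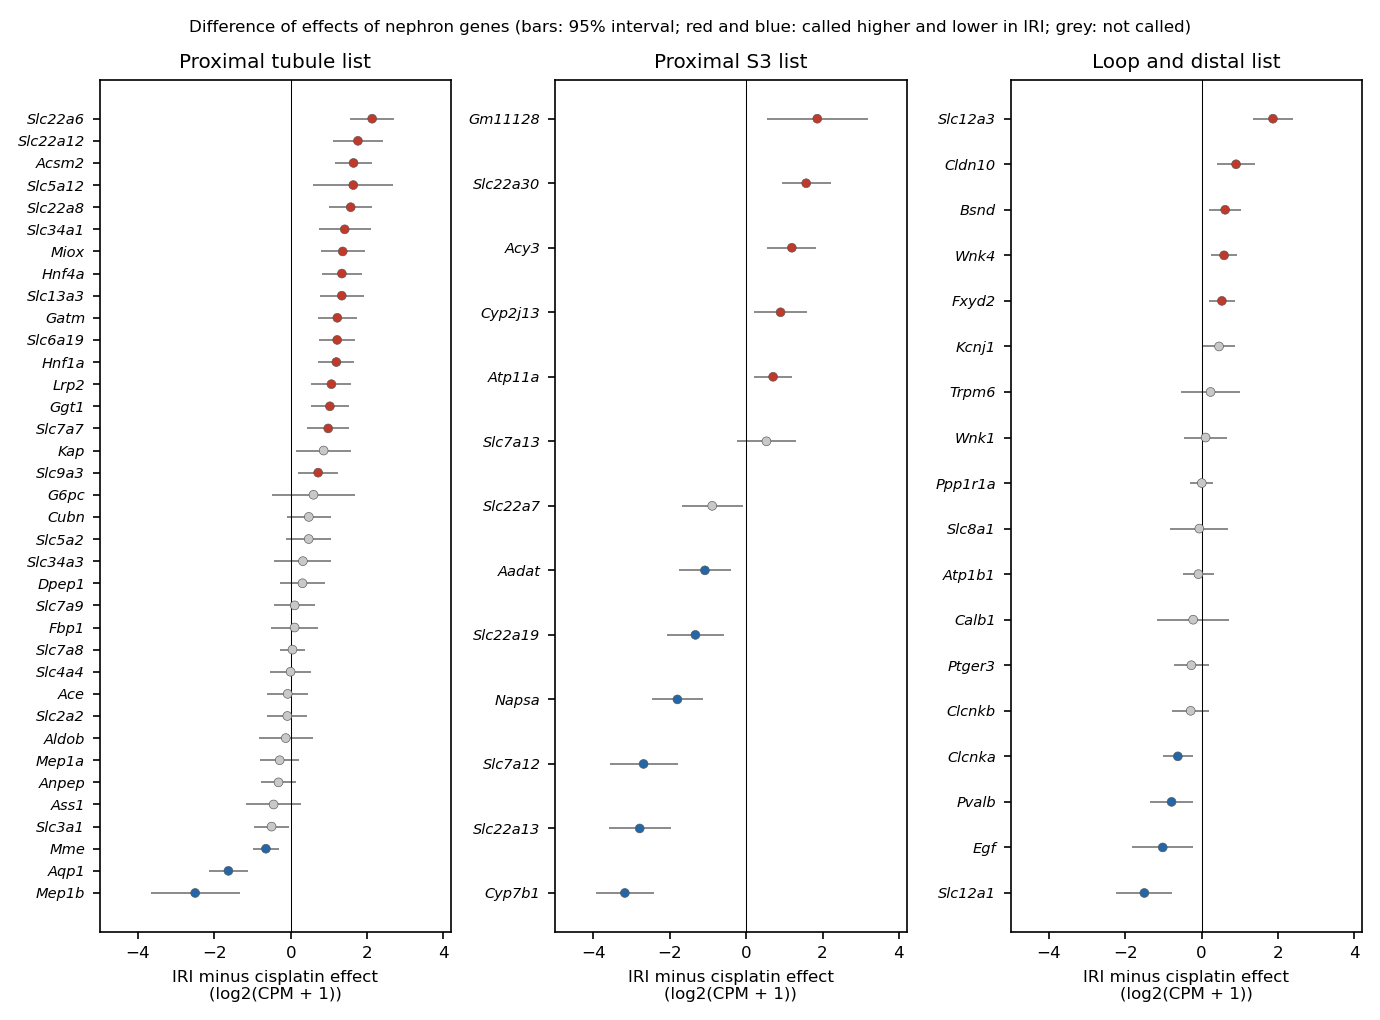
Difference of effects (IRI minus cisplatin, log2(CPM + 1)) for tested genes of the proximal tubule, S3 and loop and distal lists; bars are 95% intervals and colours mark called differences. Slc22a6 (2.13) and Slc12a3 (1.87) lie to the right of 0, and Cyp7b1 (−3.17), Slc22a13 (−2.79) and Slc12a1 (−1.5) to the left.

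The loop of Henle and the distal tubule divided as well. Of 18 genes, 18 were called lower in each injury (background 40.1% in IRI and 44% in cisplatin). A higher difference was called for 5 (background 13.5%) and a lower one for 4 (16.8%). With quantile normalization 2 had a lower one, and of the 4, Egf (−1.02) lost its call in most other settings. The list median of −0.03 changed sign to 0.01 and 0.06 under 75th percentile scaling and quantile normalization. Slc12a1, the cotransporter of the thick ascending limb that loop diuretics block, stood at 47.1, 70.7, 71.3 and 92.1 CPM in IRI and 200, 220, 181 and 168 CPM in cisplatin, from 534 to 1059 CPM in the controls. It fell 11.2-fold in IRI and 3.86-fold in cisplatin (−1.5, SE 0.36, limma adjusted p = 0.00279). Slc12a3, the thiazide-sensitive cotransporter of the distal convoluted tubule, stood at 289, 430, 394 and 413 CPM in IRI and 102, 83.3, 138 and 123 CPM in cisplatin, from 500 to 916 CPM. It fell 1.78-fold and 6.4-fold, the reverse order (1.87, SE 0.26, limma adjusted p = 1.03e-05). Of 9 collecting duct genes, Slc4a9, a transporter of intercalated cells, was called (−0.70) and lost its call without IRI 3 or cisplatin 2 (−0.59 and −0.60). The list had 2 called members without IRI 4, cisplatin 4 or control 4.

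Of 17 phosphate and calcium genes, 5 had a called difference, a share near the background of 30.3%. All 5 had the IRI effect higher (background 13.5%). The list's median effects overlapped between the IRI and cisplatin libraries, and its median difference of 0.28 was 0.005 without IRI 4. The parathyroid hormone receptor Pth1r fell 1.66-fold in IRI and 3.82-fold in cisplatin (1.26), and Slc34a1 fell 6.4-fold and 15.8-fold (1.41). The calcium receptor Casr (0.91) and Kl (0.73), which encodes the FGF23 coreceptor klotho, had the same sign. Cyp24a1, which inactivates vitamin D, rose in both and its difference of 1.06 was not called (95% interval −0.19 to 2.32), and it ranged from 0.69 without control 7 to 1.5 without control 5, where it was called. Of 12 cholesterol genes, 5 had a higher difference (background 13.5%). Stard4, a sterol carrier, did not pass in IRI and fell 2.48-fold in cisplatin (1.33), and so did Dhcr7, the last enzyme of cholesterol synthesis, which fell 1.95-fold in cisplatin (0.81). Of 16 genes of fatty acid oxidation, Crat (0.77) and the nuclear receptor Esrra (0.51) were called, and Esrra was not without IRI 3, cisplatin 2 or control 8 (0.44 to 0.47). Without IRI 4 this list had 4 called members. Of 10 genes listed for cisplatin uptake, export and conjugation, 3 had a higher (background 13.5%) and 2 a lower difference (16.8%). The 2 lower ones were the metallothioneins Mt1 and Mt2, also counted in the metal response list. The copper transporter Slc31a1 (0.10) was not called. Gstp1, a glutathione transferase, rose more in IRI (0.95), and Ggt1, which cleaves glutathione conjugates, fell more in cisplatin (1.03).

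**Figure D5:**
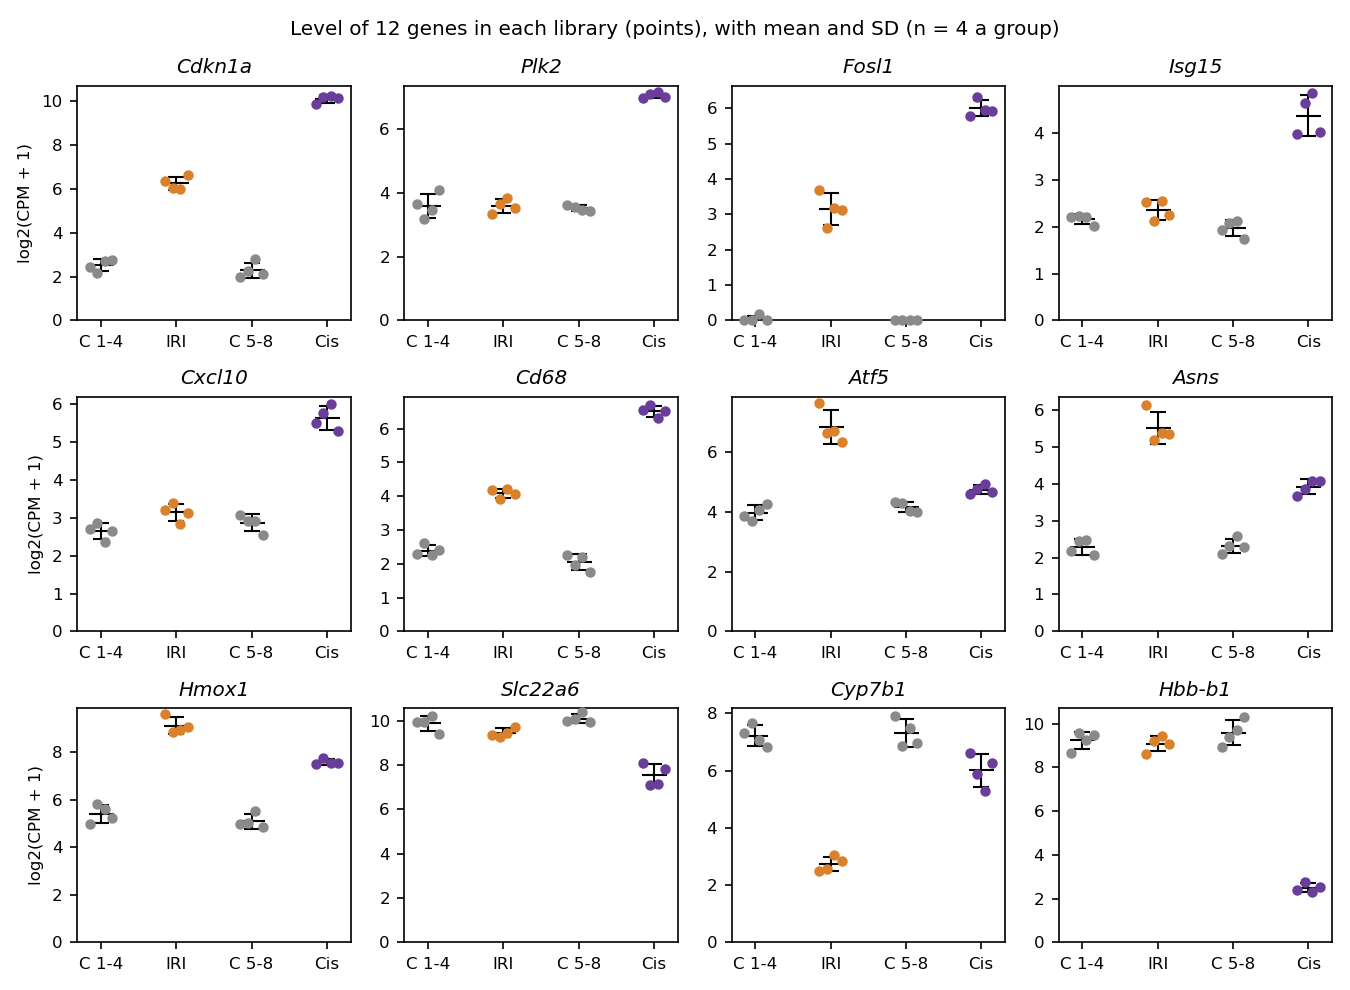
Level of 12 genes in log2(CPM + 1) in each library of controls 1 to 4 (C 1-4), IRI, controls 5 to 8 (C 5-8) and cisplatin (Cis); points are libraries and the bars give the mean and SD of 4 libraries. Cdkn1a, Fosl1 and Cd68 rose in both injuries and more in cisplatin, Atf5, Asns and Hmox1 more in IRI, and Cyp7b1 and Hbb-b1 fell in 1 injury far more than in the other.

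The 4 largest differences of all genes tested were those of globin genes. Hbb-b1, an adult beta globin, stood at 409, 755, 610 and 713 CPM in controls 1 to 4 and at 390, 587, 691 and 545 CPM in IRI. Controls 5 to 8 were at 488, 676, 829 and 1274 CPM and cisplatin libraries at 4.2, 5.85, 3.91 and 4.75 CPM. IRI overlapped its controls, and cisplatin was 175-fold lower (difference 6.93, SE 0.36, limma adjusted p = 1.81e-11). Hbb-bs (7.01) and Alas2 (3.17), the first enzyme of heme synthesis in red cell precursors, did not pass in IRI either and fell in cisplatin. The alpha globins Hba-a2 (5.63) and Hba-a1 (5.49) fell in both and further in cisplatin. Globin copies are nearly identical, so reads may have been exchanged between them, and Hbb-bt and Hbb-b2 had the same value in all 20 libraries. The summed level of 8 red cell genes was 1218 to 2974 and 1174 to 2945 CPM in the 2 sets of controls, 1069 to 1709 CPM in IRI and 8.16 to 22 CPM in cisplatin. In the rhabdomyolysis libraries of the series, taken at 24 h and in the identifier range of cisplatin, it was 396 to 516 CPM. How much blood was left in the tissue is not given in the sources used here, and its part in other values was not tested.

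Other leading genes had a higher IRI effect. Cyp2a5, a cytochrome P450 close in sequence to Cyp2a4, stood at 371, 366, 515 and 355 CPM in IRI against 146 to 259 CPM in its controls, and at 34.2, 32.2, 29.2 and 34.9 CPM in cisplatin against 134 to 159 CPM. It rose 1.79-fold in IRI and fell 4.48-fold in cisplatin, a difference of 2.98 (SE 0.28, limma adjusted p = 5.85e-08). Cyp4a12a, a fatty acid hydroxylase with the near copy Cyp4a12b, did not pass in IRI and fell 10.8-fold in cisplatin (3.25). Ctxn3, a small membrane protein, rose from 0.29 to 2.15 CPM to 13.7 to 84.0 CPM in IRI and fell in cisplatin (4.83).

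Cyp2a5 and Ctxn3 belong to the 13 genes called in opposite directions (0.229% of those tested). Gbe1, the glycogen branching enzyme, rose 2.51-fold in IRI and fell 1.26-fold in cisplatin (1.65). The mitochondrial ribosomal protein gene Mrpl12 rose 1.22-fold in IRI and fell 2.22-fold in cisplatin (1.45), and Lhpp, a phosphatase, rose 2.34-fold and fell 1.77-fold (1.67). In the other direction, Plcd4, a phospholipase C, fell 1.92-fold in IRI and rose 8.38-fold in cisplatin (−3.24). Crip2, a LIM domain protein, fell 1.37-fold and rose 3.52-fold (−2.22). The gene 1700007K13Rik, of no role given here, stood at 0.13 to 0.69 CPM in IRI and 33.4 to 38.8 CPM in cisplatin (−5.11), and Svop (−3.02) and Arl4d (−2.0) were the other named genes of this kind.

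Leaders with a lower IRI effect included genes outside the lists. Gc, which encodes the vitamin D binding protein of plasma, stood at 43.4, 74.7, 65.1 and 40.5 CPM in IRI and at 643, 805, 655 and 762 CPM in cisplatin, against 29.7 to 58.2 CPM in all controls. It did not pass in IRI and rose 22.2-fold in cisplatin (difference −4.06, SE 0.24, limma adjusted p = 8.83e-11). Zfp365 (−4.52) and Alox5 (−4.04), a lipoxygenase that starts leukotriene synthesis, were at most 2.13 and 0.67 CPM in IRI and at least 40.5 and 14.9 CPM in cisplatin. Cpt1c (−4.07), a carnitine palmitoyltransferase relative, was at 28.1 to 32.9 CPM in cisplatin and at most 1.38 CPM elsewhere. Fam212b (−4.26) reached 36.3 to 41.1 CPM in cisplatin and did not pass in IRI. For 2 leaders the difference came from a fall in IRI. Akr1c18, a steroid dehydrogenase that inactivates progesterone, fell 45.1-fold in IRI, to 0.13 to 0.80 CPM, and did not pass in cisplatin (−4.14). Serpina1d, a protease inhibitor with near-identical copies, fell 22.9-fold in IRI and did not pass in cisplatin (−4.0).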

How the data were processed

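RNA sequencing of mouse kidney was analysed in 16 of 20 libraries (IRI, cisplatin and 4 controls for each), with the 4 rhabdomyolysis libraries kept in the model for the estimate of the spread. Per the labels' protocols, poly-A RNA from renal cortex was made into stranded libraries with a plan of 20 M reads of 150 bp each. The submitters' processing notes name FastQC, Bowtie2 2.1.0, RSEM 1.2.15, edgeR and the builds GRCm38 and mm10, and give no role or order here. The authors deposited 1 table of CPM (depth-scaled counts) for 6025 genes, selected by a rule not given in the sources used here, and 13 symbols in it look like calendar dates. Values of all 20 libraries were whole multiples of the worth of 1 read (100% within 0.001), so reads were recovered. In cisplatin 2 the step lies near 0.1, so its reads, which edgeR and DESeq2 also used, are taken as less certain. Its values were all whole within 5.07e-05 all the same, and the step of cisplatin 4 (0.0968) lies near 0.1 too.

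From these values, log2(CPM + 1) was fitted with limma 3.58.1 (R 4.3.3, trend, empirical Bayes) in 1 model of 5 groups over all 20 libraries. The test covered the 5672 genes whose mean reached 1 CPM and left out 353, with Benjamini-Hochberg adjustment over all of them and a threshold of 0.05. The log2(CPM + 1) scale understates the effect of an injury on low genes, and the difference of 2 such effects can be moved either way. Folds are ratios of group means in CPM, and against controls with 3 reads or fewer in each library they are lower bounds from the value of 3 reads, which covers counting error only. Replicates are separate libraries, and nothing states separate handling, so p-values measure the spread between these libraries. Alternatives were pseudocounts of 0.1 and 5, minimum means, 75th percentile and quantile scaling, no trend, 16 libraries, edgeR 4.0.16 and DESeq2 1.42.0 on recovered reads, a 2-fold minimum, a replicate block and leaving out each library. The fits were tested on simulated data.

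The comparison, the gene lists and the motifs were chosen with earlier results of these data known. Named genes were, by rule, the title genes, the 10 largest non-overlapping differences each way, the 5 largest opposed genes each way and up to 4 members of each list with the largest called difference. The rule's 10 genes with the most equal effects are given as counts. Other genes named, among them Havcr1, Lcn2, Aqp1, Cyp24a1, Bst2, Mdm2 and Hnf4a, were chosen after their values were seen. Gene positions and promoters are from RefSeq on GRCm38.p6. Some genes that the rule names are not reported here.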

Additional observations from a re-analysis of the deposited data

Results flagged for a closer look

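The IRI and cisplatin effects differed by the test of the difference itself in 1716 genes, which the report describes.

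For the 137 genes examined, 543 groups of 4 libraries were searched for a single distant value, measured as its gap to the nearest library over the range of the group in CPM. In 40 cases this share exceeded Dixon's 95% critical value, where chance gives about 1 in 20 groups, here 27.2. A share of 1, where a single library had reads and the other libraries of its group were level with each other, was found for Vgf in control 2, Fosl1 in control 3, Slc7a11 in control 7, Cxcl2 in control 5, Mmp7 in controls 2 and 6, Hbb-bs in cisplatin 4 and Hba-a2 in cisplatin 2. Among the IRI libraries, IRI 1 was high for Asns (0.868), Mthfd2 (0.864), Atf4 (0.861) and Irf7 (0.881) and low for Mrpl12 (0.915). IRI 2 was high for Zfp365 (0.928) and Nupr1 (0.865) and low for Hnf4a (0.895), IRI 3 was high for Cyp2a5 (0.898) and Esrra (0.907), and IRI 4 was high for Psat1 (0.892) and Klf4 (0.838) and low for Clspn (0.844). Among the cisplatin libraries, cisplatin 2 was high for Hmox1 (0.909), while cisplatin 1 was low for Cdkn2b (0.881), cisplatin 3 for Brca1 (0.852) and cisplatin 4 for Dhcr7 (0.838). Control 4 was low for Cyp2a5 (0.835), Isg15 (0.928) and Slc31a1 (0.958) and high for Cdk1 (0.846) and Fos (0.894). Control 1 was high for Cd44 (0.951) and control 3 low for Akr1c18 (0.877). Control 6 was high for Gins2 (0.863) and low for Ppp1r15a (0.852), control 7 was low for Plcd4 (0.893) and high for Mthfd2 (0.935), Lrp2 (0.864) and Acy3 (0.838). Control 8 was high for Lhpp (0.844) and low for Tap1 (0.905).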

How the results depend on the processing

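Of 123 genes examined with a called difference, 98 kept their call in each of up to 27 other settings that tested them and 104 in each of those that left out no library, and none changed sign. Genes under the minimum mean of 5 CPM had no value in that setting. The sign of Vgf, which was not called, turned to 0.035 with 75th percentile scaling and 0.10 with quantile normalization, and ranged from −0.31 to 0.29 when single libraries were left out. With a minimum of 1 log2 unit, 805 genes had a called difference (309 higher, 496 lower), 1717 were called in IRI and 2595 in cisplatin. Comparing IRI with cisplatin libraries directly, without their controls, called 2655 genes (1204 higher, 1451 lower). Leaving out single libraries gave 1459 genes (without cisplatin 2) to 1820 (without cisplatin 4), with 638 to 825 higher and 821 to 995 lower, 4331 to 4583 genes in IRI and 5040 to 5218 in cisplatin. Between the 2 sets of controls the count of 0 became 2 with DESeq2, 2 with a pseudocount of 0.1, and 0 to 5 when single libraries were left out, the 5 without control 4. edgeR called 1562 differences, DESeq2 1560 and quantile normalization 1967, of which 1500, 1495 and 1623 were also called by limma as reported. Control and IRI libraries with the same number had deviations that correlated across genes at 0.065, −0.112, 0.176 and −0.052, so the numbers were not taken to pair them, and a replicate block within these groups called 1697 genes, 1642 of them shared. With the block Cenpe (0.76), Csf1r (−0.69) and Egf (−1.02) lost their calls, and no other gene examined did. Genes with few reads in the controls limit the log scale, and the calls lost with edgeR or DESeq2 on recovered reads are named beside those genes.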
